A study of Mus musculus with 16 samples.

Results

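The Wnt ligand, receptor and signalling genes are a set of 48 protein-coding genes among the 21887 compared. They were taken by symbol: all genes named Wnt or Fzd with a number, and 19 named genes of ligand secretion, reception and the beta-catenin branch of the pathway. A gene stayed in the set whether or not it carried a signal. The mark measured by ChIP-seq in occipital cortex homogenate was beta-hydroxybutyrylation of histone H3 at lysine 9 (H3K9bhb), an acylation that takes its acyl group from beta-hydroxybutyrate, a ketone body. The mice were C57BL/6J at postnatal day 35 and were either fasted for 48 h or fed ad libitum. Each feeding state had 4 immunoprecipitated and 4 input libraries. The files hold the authors' regions enriched in fasted mice (8404) and in ad libitum mice (1), each with a log likelihood ratio (log-LR) that serves here as a score. They hold no value per library, so depth is unknown, neither a fold change nor a spread between replicates can be given, and nothing was tested between mice. The set was chosen by symbol with the log-LR and position of the fasting-enriched regions at these genes already known, so all values below are descriptions.

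Wnt proteins are secreted lipid-modified ligands. Porcn attaches the lipid, Wls carries the ligand to the cell surface, and Frizzled receptors with the co-receptors Lrp5 and Lrp6 bind it. Without ligand, a complex of Apc, Axin and the kinases Gsk3a and Gsk3b marks beta-catenin (Ctnnb1) for destruction, and with ligand, dishevelled proteins hold that complex back so that beta-catenin can act with TCF/LEF factors in the nucleus. In brain the pathway patterns the early cortex and later acts at synapses and on vessels.

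The promoters shown are those of Gsk3b and Fzd1, 2 of the genes with a region near the start. Their relatives Gsk3a and Fzd7, which had no region, are shown beside them. Wls is shown because its region had the highest score among the members. That region lay past the stop end, at the other end of the gene from the promoter. Each sequence is from RefSeq (GRCm38.p6, the build called mm10) and runs 5′ to 3′ from 250 bases before the annotated start to 50 after it. Capitals mark GC boxes (GGGCGG) and CCAAT boxes (CCAAT), each on either strand.
Gsk3b (chr16:38088751-38089050, plus strand): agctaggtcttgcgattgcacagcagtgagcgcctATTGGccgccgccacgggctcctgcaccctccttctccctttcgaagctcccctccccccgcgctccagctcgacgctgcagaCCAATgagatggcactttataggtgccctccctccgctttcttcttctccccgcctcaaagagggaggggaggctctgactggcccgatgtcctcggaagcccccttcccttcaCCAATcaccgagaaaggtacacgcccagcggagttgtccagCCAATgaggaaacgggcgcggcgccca
Gsk3a (chr7:25237802-25238101, minus strand): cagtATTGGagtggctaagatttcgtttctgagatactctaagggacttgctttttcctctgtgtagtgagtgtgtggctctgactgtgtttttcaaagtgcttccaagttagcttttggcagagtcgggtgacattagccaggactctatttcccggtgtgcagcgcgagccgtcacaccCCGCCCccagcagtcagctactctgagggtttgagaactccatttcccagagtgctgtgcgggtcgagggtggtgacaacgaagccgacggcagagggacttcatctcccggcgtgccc
Fzd1 (chr5:4758167-4758466, minus strand): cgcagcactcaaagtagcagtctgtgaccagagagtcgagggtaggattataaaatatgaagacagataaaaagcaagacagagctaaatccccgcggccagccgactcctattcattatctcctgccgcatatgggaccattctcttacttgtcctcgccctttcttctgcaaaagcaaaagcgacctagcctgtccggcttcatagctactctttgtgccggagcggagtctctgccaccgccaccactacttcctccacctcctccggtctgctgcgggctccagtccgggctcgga
Fzd7 (chr1:59481897-59482196, plus strand): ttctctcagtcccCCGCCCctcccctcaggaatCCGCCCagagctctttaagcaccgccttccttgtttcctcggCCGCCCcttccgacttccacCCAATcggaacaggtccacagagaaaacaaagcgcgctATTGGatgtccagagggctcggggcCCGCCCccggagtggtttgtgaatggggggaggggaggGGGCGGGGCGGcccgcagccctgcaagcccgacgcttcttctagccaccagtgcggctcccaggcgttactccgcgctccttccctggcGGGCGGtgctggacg
Wls (chr3:159839400-159839699, plus strand): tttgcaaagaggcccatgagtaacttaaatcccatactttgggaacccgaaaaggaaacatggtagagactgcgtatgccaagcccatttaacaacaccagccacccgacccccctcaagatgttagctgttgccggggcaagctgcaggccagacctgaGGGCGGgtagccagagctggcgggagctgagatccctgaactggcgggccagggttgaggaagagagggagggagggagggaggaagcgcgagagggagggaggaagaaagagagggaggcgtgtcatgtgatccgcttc
No GC box was found in the Gsk3b and Fzd1 windows, 1 each in those of Gsk3a and Wls, and 7 in that of Fzd7. The Gsk3b window held 4 CCAAT boxes, the most of the 33 members with a promoter entry, against 1 for Gsk3a. Fzd1 held no CCAAT box and Fzd7 held 2.

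Gsk3b, Apc, Fzd1 and Wls were the members with a fasting-enriched region. A region lay within 1 kb of a gene end in these 4 of the 48 members (8.33%), against 11.9% of all protein-coding genes, and nothing is read from that count. None (0 of 48) had a region in the gene body clear of the 1 kb windows at the ends, against 7.24% of all protein-coding genes. The ad libitum list had only 1 region in all, and it was not at a member, so nothing is read from that either.

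Gsk3b, a kinase gene of the destruction complex, had a log-LR of 6.39 over a region of 343 bp (chromosome 16, 38089724 to 38090066). This lay inside the gene, 723 to 1065 bp from its start on the plus strand, so it fell past the promoter window printed above. Apc, the scaffold gene of the same complex, had a log-LR of 4.85 over a region of 470 bp (chromosome 18, 34221041 to 34221510). This lay inside the gene, 744 to 1213 bp from the end with the lower coordinate, and overlapped the transcribed pseudogene Gm10548. The table used for strand has no entry for Apc. Both regions were wide for the list, since 84.5% of all 8404 were narrower than that of Gsk3b and 94.4% were narrower than that of Apc.

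Fzd1, a Frizzled receptor gene, had a log-LR of 4.14 over a region of 142 bp (chromosome 5, 4757761 to 4757902). This lay inside the gene, 314 to 455 bp from the start on the minus strand. Among all regions 24.2% had a lower log-LR than that of Fzd1, 47.4% a lower one than that of Apc and 76.3% a lower one than that of Gsk3b. These 3 values spanned the middle of the list, whose median was 4.96 with quartiles of 4.16 and 6.28. No other protein-coding gene shared any of the 3 regions, and the next region was 152 kb away for Apc, 221 kb for Gsk3b and 241 kb for Fzd1.

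**Figure D1:**
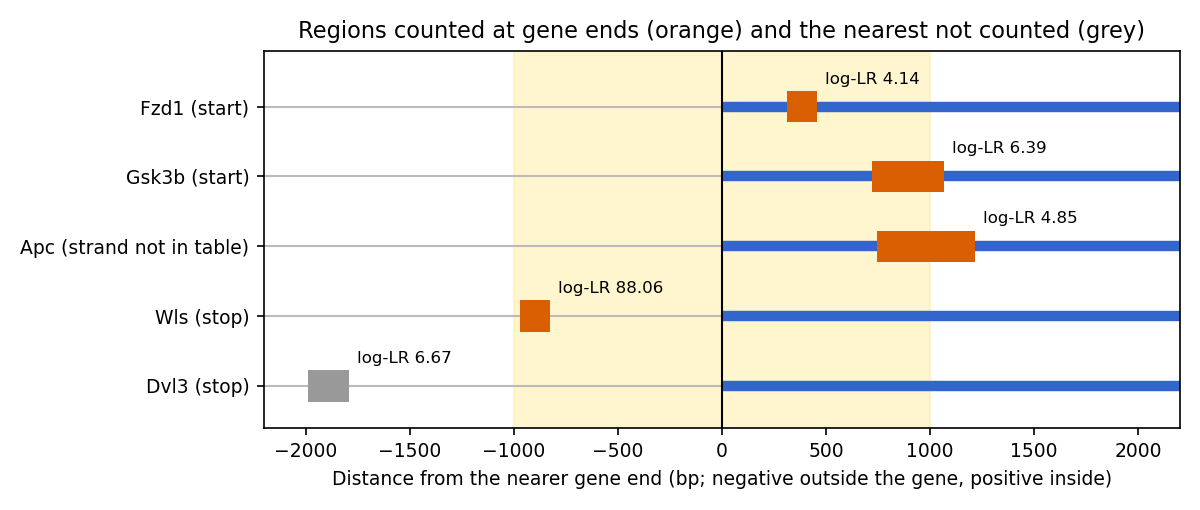
Position of the 4 member regions (orange) and of the nearest region not counted, that of Dvl3 (grey), in bp from the nearer gene end, with the gene drawn in blue to the right of 0 and the 1 kb window shaded. The regions of Fzd1, Gsk3b and Apc lie inside the gene, while that of Wls lies outside it, 829 to 968 bp from the end.

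Wls stood apart in score and in place. Its log-LR of 88.1, which 109 of the 8404 regions reached, was that of a region of 140 bp (chromosome 3, 159939495 to 159939634). This lay downstream of the gene, 829 to 968 bp past the stop end on the plus strand, and overlapped no annotated gene. Among the 2474 regions within 1 kb of protein-coding gene ends it had the highest log-LR. The next were those of Gm4064 on chromosome Y (65.5), Rps29 (31.7) and Bod1l (29.4).

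The place of the Wls region was also uncommon. Of 2113 protein-coding genes with a region at an end and a known strand, 92.9% had it at the start alone, 4.54% (96 genes) at the stop end alone and 2.60% at both. With regions that were at a start of one gene and at a stop end of another left out, 59 regions at stop ends, that of Wls among them, had a median log-LR of 5.20, against 4.92 for 1840 regions at starts. The Wls region was 1060 kb from the next region on its chromosome. Of the 109 regions that reached its log-LR, 61 lay on chromosomes 1 to 19, X or Y and 12 had no other region within 50 kb. It was narrow, with only 14.6% of regions narrower. Of the 109, 48 lay on unplaced or unlocalised contigs, and that of Wls was the only 1 at a protein-coding gene end. Whether repeated sequence, the input signal or 1 library set the Wls score was not tested, since no genome, input track or value per library was used here. Beside it, the other ligand secretion gene, Porcn on chromosome X, had no region, and its nearest one lay 48.2 kb away.

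**Figure D2:**
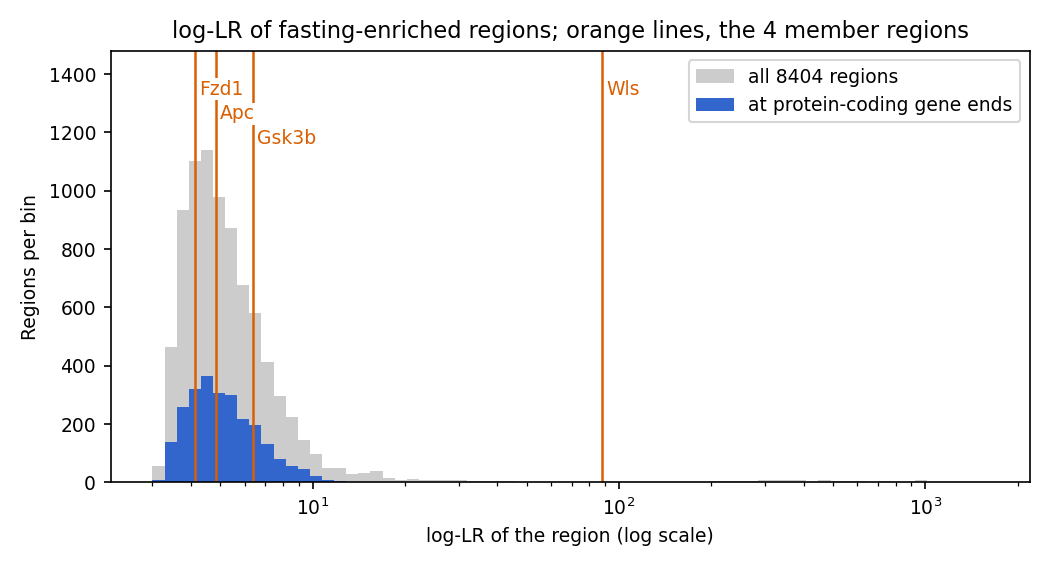
Number of regions by log-LR (log axis) for all 8404 fasting-enriched regions (grey) and for those within 1 kb of protein-coding gene ends (blue), with orange lines at the 4 member regions. Fzd1, Apc and Gsk3b sit in the bulk at 4.14, 4.85 and 6.39, and Wls sits at 88.1, beyond all others shown in blue.

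None of the 19 Wnt ligand genes had a region at an end or in the body, against 11.9% and 7.24% of all protein-coding genes, shares that come to few genes in a group of this size. They were Wnt1, Wnt2, Wnt2b, Wnt3, Wnt3a, Wnt4, Wnt5a, Wnt5b, Wnt6, Wnt7a, Wnt7b, Wnt8a, Wnt8b, Wnt9a, Wnt9b, Wnt10a, Wnt10b, Wnt11 and Wnt16. Their nearest regions lay a median of 78.5 kb away, and the farthest was 348 kb from Wnt2. Closest was a region 7.62 kb from Wnt10b (log-LR 5.69), which lay at an end of Arf3, a small GTPase gene. Next came one 16.0 kb from Wnt2b (log-LR 4.71), to which no other protein-coding gene was nearer.

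Wnt genes often lie side by side, and 4 neighbouring pairs were measured whole, from 1 kb before the first gene to 1 kb after the second. The pairs Wnt6 with Wnt10a (51.8 kb), Wnt3a with Wnt9a (87.5 kb), Wnt9b with Wnt3 (92.7 kb) and Wnt10b with Wnt1 (25.1 kb) each held 0 regions. No region thus lay in the genes of a pair, between them or within 1 kb of them. Wnt9b and Wnt3 overlap, so that pair has no stretch between its genes. The spans are short where the bodies of all protein-coding genes held 2.15 regions per Mb, so nothing is read from these counts.

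Among the receptors, 1 of 10 Frizzled genes had a region at an end, against 11.9% of all protein-coding genes. Nothing is read from that count, and the gene with the region was Fzd1. Fzd2, Fzd3, Fzd4, Fzd5, Fzd6, Fzd7, Fzd8, Fzd9 and Fzd10 had none, and their nearest regions lay 39.2 kb (Fzd5) to 277 kb (Fzd7) away. The co-receptor genes Lrp5 and Lrp6 had none, with the nearest 21.8 kb and 74.2 kb away. Neither did Rnf43 and Znrf3, ubiquitin ligase genes that remove Frizzled receptors from the cell surface, nor Dkk3, a secreted member of the Dickkopf family, for which the distances were 251, 76.5 and 92.0 kb.

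In the cytoplasm, regions at an end were found in 2 of the 5 destruction complex genes, Apc and Gsk3b, against 11.9% of all protein-coding genes. Nothing is read from a share of 5 genes, and neither gene was counted with a window of 500 bp. Axin1 and Axin2, scaffold genes of the complex, and Gsk3a had none at 17.6, 60.9 and 12.2 kb. The dishevelled genes Dvl1, Dvl2 and Dvl3 had none under the 1 kb rule. For Dvl3 the nearest region (log-LR 6.67) lay 1794 bp past its stop end, at an end of Ap2m1, a clathrin adaptor gene, and was the closest one outside the window. That of Dvl2 (log-LR 4.62) lay 8.51 kb away inside Dlg4, the gene of the postsynaptic scaffold PSD-95. The nuclear members Ctnnb1, Lef1, Tcf7l1 and Tcf7l2 had none, at 80.7, 78.3, 186 and 227 kb.

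**Figure D3:**
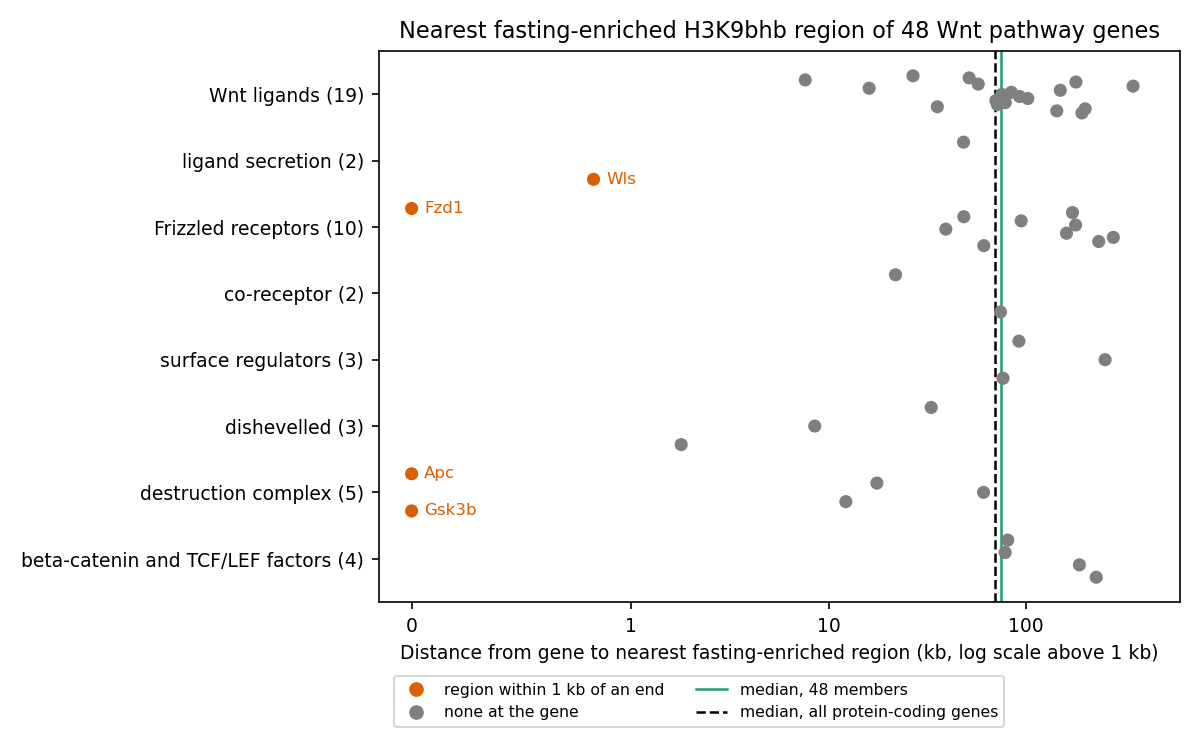
Distance in kb from each of the 48 members to its nearest fasting-enriched region (log scale above 1 kb), by role, with members that have a region within 1 kb of an end in orange. Lines mark the medians of 74.8 kb for the members and 69.2 kb for all protein-coding genes, and the 19 Wnt ligand genes all lie beyond 7 kb.

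Distances to the nearest region are given next, as counts of few genes from which nothing is read. Their median distance to a region was 74.8 kb, against 69.2 kb for all protein-coding genes. A region lay in or within 10 kb of 7 members (14.6%), against 23.3% of all protein-coding genes, and within 50 kb of 17 (35.4%), against 43.0%. The 7 include the 4 members with a region at an end. Distances over 200 kb were found for 5 members (10.4%), Wnt2, Fzd7, Rnf43, Fzd8 and Tcf7l2, against 22.5% of all protein-coding genes.

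Gene length bears on the count in bodies, since a longer gene has more room. The members had a median length of 26.9 kb (range 2.11 to 192 kb), against 17.2 kb for all protein-coding genes. Their bodies together covered 2.15 Mb. Regions that touched an end window of the gene were not counted, as for those of Apc and Gsk3b, which reached a little into the body. Counted so, the member bodies held 0 regions, while the bodies of all protein-coding genes held 2.15 regions per Mb. In the 8 members of 60 to 120 kb the count was 0, against 14.4% of protein-coding genes of that length with a region in the body, a share that comes to 1.15 of 8 genes. In the 5 members of 120 to 200 kb it was 0, against 22.2%, which comes to 1.11 of 5 genes. The longest of these, Tcf7l2 (192 kb), Znrf3 (169 kb) and Tcf7l1 (163 kb), were without a region from end to end.

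Other genes of the pathway were counted in 5 lists that hold no member. Of 135 genes in all, each counted once, 29 (21.5%) had a region at an end, against 11.9% of all protein-coding genes. Secreted and surface modulators had 1 of 27 (3.70%) and common Wnt target genes 1 of 24 (4.17%), while destruction complex and cytoplasmic modulators had 12 of 33 (36.4%), nuclear beta-catenin cofactors 9 of 26 (34.6%) and non-canonical and planar polarity genes 6 of 28 (21.4%). In the gene body, where 7.24% of all protein-coding genes had a region, the order was another one. Common targets had 4 of 24 (16.7%), cytoplasmic modulators 4 of 33 (12.1%), secreted and surface modulators 2 of 27 (7.41%), polarity genes 2 of 28 (7.14%) and nuclear cofactors 1 of 26 (3.85%). The lists overlap. Lgr5, for instance, is in both the common target and the secreted and surface lists, and its body region counts in each. The lists were written with earlier results of these data known, and their genes are used by other pathways too. No difference between lists was tested.

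**Figure D4:**
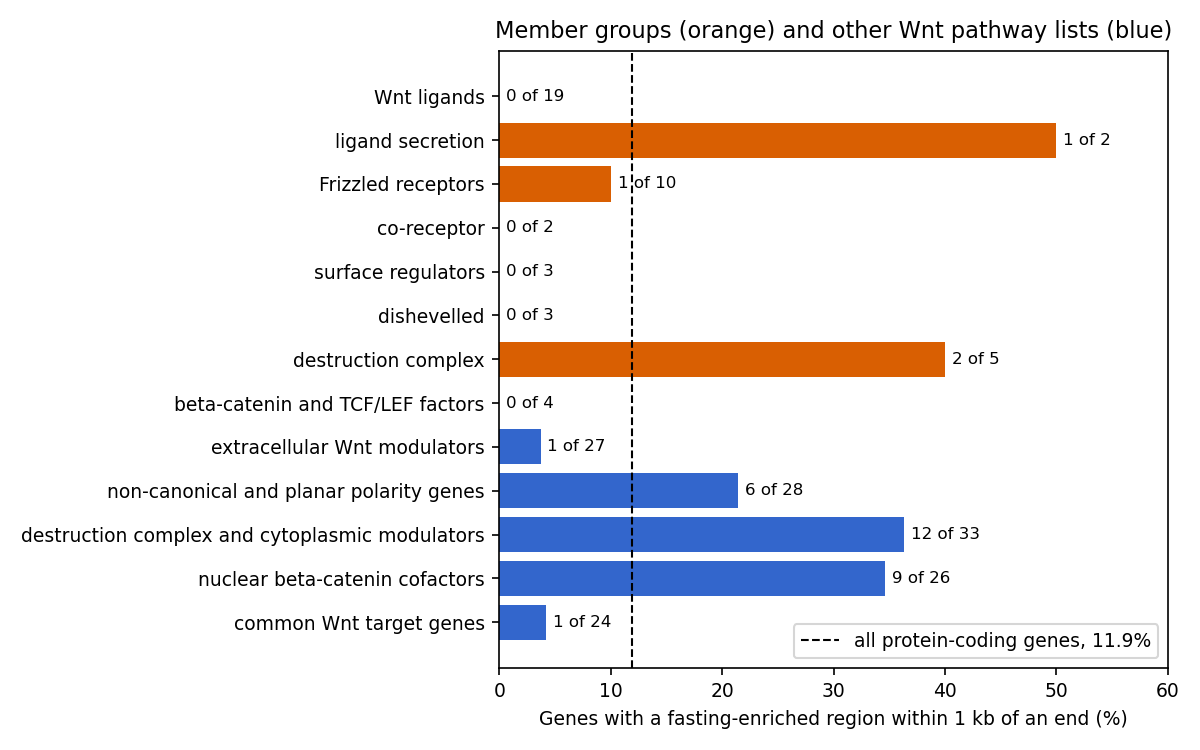
Percent of genes with a fasting-enriched region within 1 kb of an end, for the 8 member groups (orange) and 5 other Wnt pathway lists (blue), with counts beside the bars and a dashed line at 11.9%, the share of all protein-coding genes. The Wnt ligands have 0 of 19, the ligand secretion genes 1 of 2 and the destruction complex genes 2 of 5. The cytoplasmic and nuclear lists have 36.4% and 34.6%. Members and lists were chosen with earlier results of these data known, and no difference was tested.

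Among cytoplasmic modulators the highest log-LR values at an end were those of Cul1 (7.11), the scaffold of the SCF ubiquitin ligase, and of the casein kinase genes Csnk1g1 (6.45, shared with Trip4), Csnk1g2 (6.35) and Csnk1d (5.25). Casein kinases phosphorylate beta-catenin and other proteins of the pathway. Fbxw11, a gene of the ligase that ubiquitinates beta-catenin, had a region at its start (log-LR 3.63) and another in the body (6.83).

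Nuclear cofactors were led by the acetyltransferase gene Crebbp (log-LR 7.05), the kinase gene Nlk (6.11), the chromatin remodeller gene Chd8 (5.76) and the beta-catenin cofactor gene Bcl9l (5.69). Ctbp2, a corepressor gene, also had a region in the body (4.20). The polarity list was led by Ptk7 (7.17), a co-receptor gene, the cadherin gene Celsr2 (6.65), and the kinase genes Camk2b (5.99) and Mapk8 (5.90). Camk2a, the partner subunit gene of Camk2b, had one in the body (9.49).

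Among secreted and surface modulators the only end region counted was for Kremen2 (5.18), a Dickkopf receptor gene, at its stop end and shared with Paqr4, and Tspan12, a tetraspanin gene that acts with Fzd4, had a region in the body (6.20). Among targets, the transcription factor gene Jun (7.24, at its stop end) was counted, and Nos2 had a body region (10.1). Over all 29 genes the end regions had a median log-LR of 5.25 and a range of 3.63 to 7.24, so that none came near that of Wls. Of these genes 21 had the region at the start, 2 had it at the stop end, and for 6 the strand was not in the table.

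Promoter composition was measured in the 33 members with an entry, in the same window of 300 bp. Apc, which had a region at an end, has no entry and is not among them. The 3 with a region at an end had GC contents of 63.0% (Gsk3b), 58.0% (Wls) and 54.0% (Fzd1), against a median of 72.0% (range 46.7 to 86.3%) in the 30 without. Of those 30, only Dvl2, Gsk3a, Rnf43, Wnt8b and Wnt16 fell under Gsk3b. The region of Wls lay past its stop end, so its promoter window is at the other end of the gene. All 33 members had a median of 71.3%, against 56.3% for the promoters of 17492 protein-coding genes. In those with a region at an end (2113) the median was 64.3%, between those of all members and of all protein-coding promoters.

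CpG dinucleotides numbered 21 in the Gsk3b window, 16 in that of Fzd1 and 11 in that of Wls, against a median of 31.5 in the 30 members without a region. As a ratio of observed to expected from base content, the values were 0.734 for Gsk3b, 0.754 for Fzd1 and 0.460 for Wls, against a median of 0.823. For all protein-coding promoters the median was 0.577, and for the 2113 whose gene had an end region it was also 0.823. With 3 genes on one side, these values describe the genes and were not tested.

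**Figure D5:**
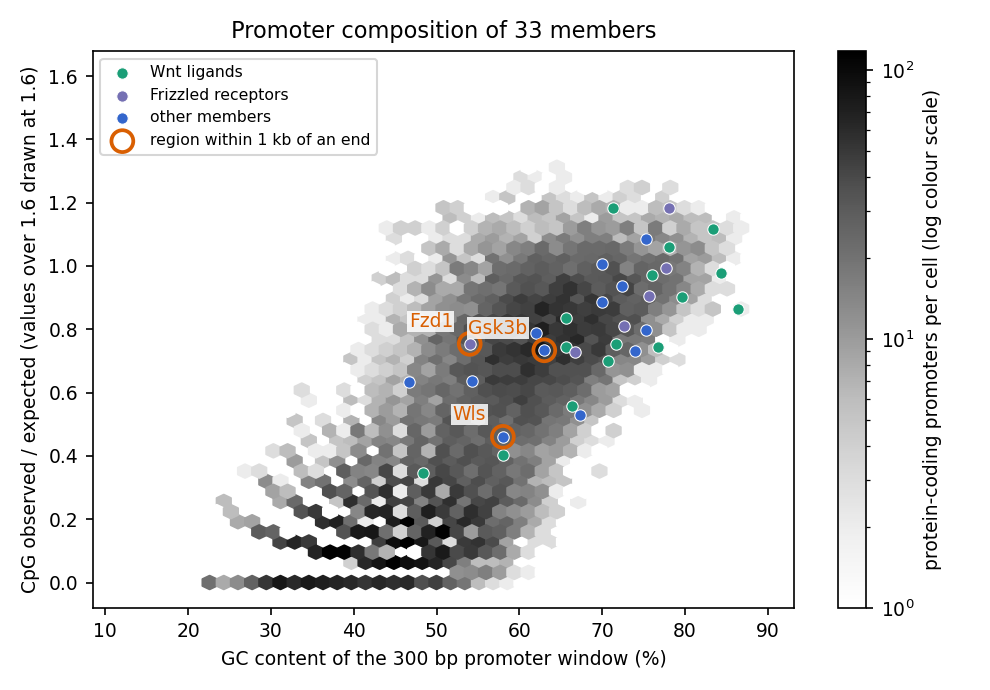
GC content (%) and ratio of observed to expected CpG of the 300 bp promoter window in 33 members by role, over all protein-coding promoters (grey cells, darker where more genes fall). The ringed members with a region at an end, Gsk3b, Fzd1 and Wls, have 54.0 to 63.0% GC, left of most other members. The region of Wls is at its stop end, not at the promoter. Apc, which also has a region at an end, has no promoter entry and is not shown.

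Short letter motifs were searched on both strands of the same windows. GC boxes were in 27 of 33 members (81.8%), against 46.3% of protein-coding promoters and 70.4% of the 2113 whose gene had an end region, and the 6 without one were Gsk3b, Fzd1, Rnf43, Wnt8b, Wnt10b and Wnt16. CCAAT boxes were in 13 (39.4%), against 39.2%. The letters TATAAA were in 3 (9.09%), Gsk3b, Fzd1 and Wnt11, against 13.3%. TCF/LEF letters (CTTTG followed by AT, AA, TT or TA) were in 4 (12.1%), against 14.9%. They were in 0 of the 3 members with both a region at an end and a promoter entry. The letters TGACG, a part of the CRE, were in 5 members (15.2%), against 23.8%, and the E-box CACGTG in 3 (9.09%), against 7.91%. AP-1 letters (TGANTCA) were in 2 (6.06%), against 7.03%, the full CRE (TGACGTCA, which holds the letters TGACG) in 1 (3.03%), against 2.33%, and TGTTCT in 4 (12.1%), against 16.4%. The letters of FOXO (TGTTTAC), YY1 (AAGATGGC), E2F (TTTCGCGC or its variant TTTGGCGC) and NRF1 were in 0 members, against 2.93%, 3.21%, 1.09% and 1.33%. A match is a match of letters and not a site of binding.

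The lists of gained regions give no expression, so the tissue label could not be checked by marker levels. Regions at an end were counted in 0 of 10 markers each of excitatory neurons and astrocytes, 2 of 10 of oligodendrocytes, 1 of 10 of microglia, and 1 of 15 of liver, blood and skeletal muscle. These counts were on both sides of the 11.9% of all protein-coding genes. In the body, 2 of 10 excitatory neuron markers had a region and 0 in each other marker list, against 7.24%.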

How the data were processed

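Per the labels' protocols, sonicated cortical nuclei gave the chromatin, from which an antibody to H3K9bhb drew the marked DNA. The submitters' processing notes list Bowtie2, MACS2 and mm10 with no role or version. The deposited log-LR is used as a score. Its log base and cutoff, the scaling for depth and any pooling of libraries are not given in the sources. If depth or immunoprecipitation yield differed between feeding states, the count of regions per direction would shift.

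Starts in the files were read as counted from 0 and are printed from 1. The gene ends are those of RefSeq on GRCm38.p6, mitochondrial genes left out. A region counted at an end when it overlapped the 1 kb on either side of a gene end, and in the body when it overlapped the gene but neither window. A region near several genes counted for each. Strand was taken from the RefSeq promoter table, which matched 33 of 48 members. Members, gene lists and motifs were chosen with earlier results of these data known. All members were named, and of each other list up to 4 genes with the highest log-LR at an end and the 1 with the highest log-LR in the body. Motifs for CRE, NRF1, AP-1, FOXO, E2F, YY1 and TGTTCT were also searched. The overlap step was checked on simulated data. Python 3.11.15, numpy 2.4.6, pandas 2.3.3 and matplotlib 3.10.9 were used.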

Additional observations from a re-analysis of the deposited data

How the results depend on the processing

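No paired analysis was possible because a deposited list has 1 value per region and none per library, and leaving out replicates was not run for the same reason. Of 28 alternative values, 17 stayed within 1.5 times the reported one. Some of these could not move, such as the member body count of 0 when regions of low log-LR were left out. Members with a region at an end numbered 1 with a window of 500 bp (Fzd1), 2 with regions under a log-LR of 5 left out (Gsk3b and Wls) and 1 with those under 10 left out (Wls). With a window of 3 kb Dvl3 joined the 4, and the centre rule and the nearest-gene rule left the same 4 genes. The share of all protein-coding genes was 9.55% at 500 bp, 14.7% at 3 kb, 5.9% from a log-LR of 5 upward and 0.183% from 10 upward. Other Wnt pathway genes numbered 18 and 0 at these log-LR limits. With the whole gene between its ends counted as body, 3 members (Apc, Fzd1 and Gsk3b) and 16.4% of protein-coding genes had a region. The body share of protein-coding genes was 4.13% from a log-LR of 5 upward and 0.448% from 10 upward. These shifts follow from fewer regions or another window. Merging regions within 1 kb moved no member region, and could not, since none had another region that close.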
